A study of Mus musculus with 16 samples.

Results

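Regulators and markers of the epithelial-mesenchymal transition (EMT) were followed in immortalized mouse keratinocytes with and without integrin α3. The genes were chosen by symbol, with earlier results of these data already known. Of the 10 genes named (*Vim*, *Fn1*, *Snai1*, *Snai2*, *Zeb1*, *Zeb2*, *Twist1*, *Epcam*, *Esrp1* and *Esrp2*), 9 had a row among the 14474 genes of the count table, and *Zeb1* is not analysed here. MKα3- cells lack α3 integrin, and MKα3+ cells are that line with human α3 integrin put back. All 4 groups therefore share the null background, and the MKα3+ line carries an introduced human protein. Every comparison with and without α3 is also a comparison of the lines, so α3 and other line differences cannot be told apart. Both lines grew on collagen in low-calcium medium at 33 °C with 8% CO2 and received laminin-332 (LN332), the main basement membrane ligand of integrin α3β1 in skin, at 0.02 mg/mL, or an equal volume of vehicle (PBS with glycine and azide), for 16 to 24 h. Each of the 4 groups had 4 libraries. The methods call the points of in vitro work experimental replicates, and nothing in the labels says that the libraries came from separate cultures, so p-values measure only the spread between these libraries, which may be technical.

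EMT is the program by which an epithelial cell loosens its junctions and takes on a motile, matrix-producing state. Snail-family (*Snai1*, *Snai2*), ZEB (*Zeb1*, *Zeb2*) and Twist transcription factors drive it, largely by repressing epithelial genes through E-box DNA, while the splicing factors ESRP1 and ESRP2 maintain epithelial exon choices. In wounded epidermis, keratinocytes at the edge migrate with only part of this program, and Snai2 (Slug) is the family member best known from that setting. EpCAM is an epithelial surface protein, and vimentin and fibronectin are the classic mesenchymal products.

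Total counts per library were between 21735708 and 29338370. Levels are given as CPM, the count scaled to the size of its library with TMM factors that allow for library composition, and always in the order of replicates 1 to 4. Fold changes are log2 values from limma-voom with their standard error (SE), and a gene passed at a Benjamini-Hochberg adjusted p below 0.05 over all 14474 genes together with an absolute log2 fold change above 0.5. All 13 keratinocyte markers examined were measured, with a summed level of 11974 to 25620 CPM per library. The fibroblast markers *Dcn*, *Lum* and *Thy1* had no row, and the 10 that were measured summed to 28.6 to 64.1 CPM. The 6 measured endothelial markers summed to 4.07 to 10.1 CPM and the 2 measured melanocyte markers to 4.70 to 10.6 CPM. The mouse *Itga3* row was at 259 ± 42.4 CPM (SD, n = 4) in MKα3- and 277 ± 46.8 CPM in MKα3+ vehicle libraries (log2 fold change 0.09, adjusted p = 0.694, limma-voom), so gene-level counts of *Itga3* do not separate the lines and give no check of the labels. In such bulk RNA, fewer cells of a kind and less RNA per cell cannot be told apart.

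The library composition of 3 of the 8 MKα3+ samples stood apart and touches some of the results. Of 9 immune markers, 7 were measured (*Cd207* and *Cd3e* had no row), and they summed to 369 to 393 CPM in MKα3+ vehicle replicates 3 and 4 and MKα3+ LN332 replicate 4, against 39.9 to 148 CPM in the other 13 libraries. The macrophage lysozyme gene *Lyz2* was at 229 to 237 CPM in those 3 libraries and at 3.61 to 77.4 CPM elsewhere, and the pan-leukocyte gene *Ptprc* was at 2.90 to 3.81 against 0.425 to 1.60 CPM. The 3 libraries lay above the other 13 for 6 of the 7 markers. The exception was the macrophage marker *Cd68*, at 21.5 to 31.4 CPM in the 3 libraries and 11.7 to 41.2 CPM in the others, with its highest value in an MKα3- library. Results that change without these 3 libraries are given both ways. Without them the MKα3+ vehicle group keeps only replicates 1 and 2, and the MKα3+ LN332 group replicates 1, 2 and 3. Immune marker content, smaller group size and replicate number therefore cannot be told apart in such changes.

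RefSeq promoter windows on GRCm38.p6 were held for 5 of the measured genes (*Vim*, *Snai1*, *Zeb2*, *Twist1* and *Epcam*), and the 250 bases before each transcription start were searched for CAGGTG on both strands, which reads CACCTG on the other strand. This hexamer is the E-box that Snail and ZEB factors bind. It occurred in 2 places before *Epcam*, from 187 to 182 and from 19 to 14 bases upstream of the start, and once before *Snai1*, from 126 to 121 bases upstream. No match was found in the windows of *Vim*, *Zeb2* and *Twist1*. For comparison, 17.2% of all 32851 windows held the hexamer and 2.06% held 2 or more copies. The windows with a match are shown because they carry the letters through which these factors are known to act on epithelial genes and on their own family, with the hexamer in capitals. Both lie on the plus strand, *Epcam* at chr17:87635729-87635978 and *Snai1* at chr2:167537945-167538194.
Epcam: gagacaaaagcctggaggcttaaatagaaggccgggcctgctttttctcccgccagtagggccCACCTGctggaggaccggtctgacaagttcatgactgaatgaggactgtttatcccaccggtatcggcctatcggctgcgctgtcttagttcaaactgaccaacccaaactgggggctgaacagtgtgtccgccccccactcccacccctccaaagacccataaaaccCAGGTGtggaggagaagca
Snai1: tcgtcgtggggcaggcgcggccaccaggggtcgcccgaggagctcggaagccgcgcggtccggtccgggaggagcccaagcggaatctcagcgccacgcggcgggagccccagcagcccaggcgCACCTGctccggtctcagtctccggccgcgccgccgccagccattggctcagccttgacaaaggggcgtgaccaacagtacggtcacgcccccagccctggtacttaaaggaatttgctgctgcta

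*Epcam* and *Esrp1* were the most abundant of the measured members in every group. Compared per kilobase of annotated exon, *Epcam* ranked highest, at 146 ± 33.1 CPM per kb in MKα3- vehicle and 188 ± 25.0 CPM per kb in MKα3+ LN332 libraries (SD, n = 4). *Esrp1* came next, at 22.2 to 27.2 CPM per kb as group means, and its libraries did not overlap those of *Epcam* in any group. In MKα3- cells *Snai2* came after *Esrp1*, at 18.6 ± 4.00 CPM per kb with vehicle and 21.9 ± 6.25 with LN332, and its range overlapped that of both *Esrp1* and *Esrp2*. The order of *Snai2* and *Esrp2* was the other way round in MKα3+ cells, where *Esrp2* (18.8 ± 3.52 CPM per kb with vehicle) lay above *Snai2* (9.46 ± 0.845) with no overlap. *Twist1* came after these in all groups, at 3.23 to 6.14 CPM per kb. *Vim*, *Fn1* and *Snai1* followed, at 0.392 to 3.36 CPM per kb, and *Zeb2* was lowest, at 0.0752 to 0.210. Exon lengths were the union of all annotated exons, 1.621 kb for *Snai1* and 19.942 kb for *Zeb2*, which can exceed the length of any single transcript and then lowers the per-length value.

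**Figure D1:**
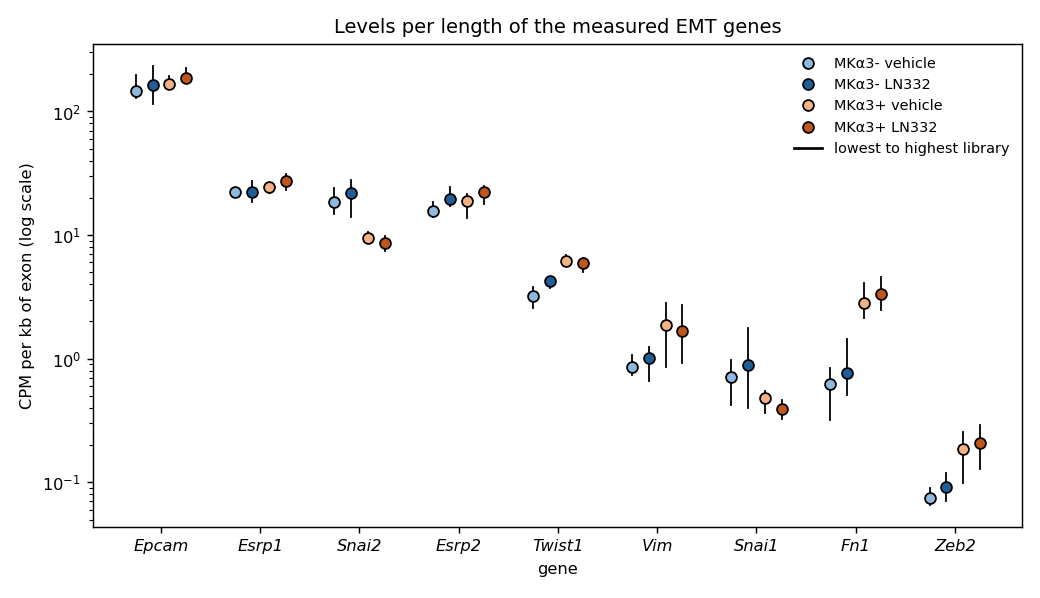
Levels of the 9 measured EMT genes in CPM per kb of annotated exon, on a log axis, with a dot for the mean of the 4 libraries of a group and a line from the lowest to the highest library. *Epcam* lies above all other genes in the 4 groups, and *Snai2* and *Esrp2* change places between MKα3- and MKα3+ cells.

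To ask which of these genes differed between the lines, MKα3+ cells were compared with MKα3- cells, first in vehicle. *Fn1*, *Zeb2* and *Twist1* were higher and *Snai2* was lower in MKα3+ cells, so 4 of the 9 measured members passed, 3 higher and 1 lower. In the same comparison 18.5% of all genes passed, 10.9% higher and 7.56% lower. The median log2 fold change was 0.24 over the members and 0.01 over all genes. With LN332 present, *Fn1* and *Zeb2* again passed as higher and *Snai2* as lower, which made 3 of 9 against 20.6% of all genes (11.7% higher, 8.92% lower), with a median of 0.29 over the members and 0.01 over all genes. *Fn1*, *Zeb2*, *Twist1* and *Snai2* were also the 4 members whose 4 MKα3+ and 4 MKα3- libraries did not overlap, in vehicle (32.9% of all genes did not) and in LN332 (26.5%). Without the 3 libraries high in immune markers, 3 members passed in vehicle (2 higher, 1 lower), where 13.1% of all genes did, and 4 in LN332 (3 higher, 1 lower), where 16.6% did.

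**Figure D2:**
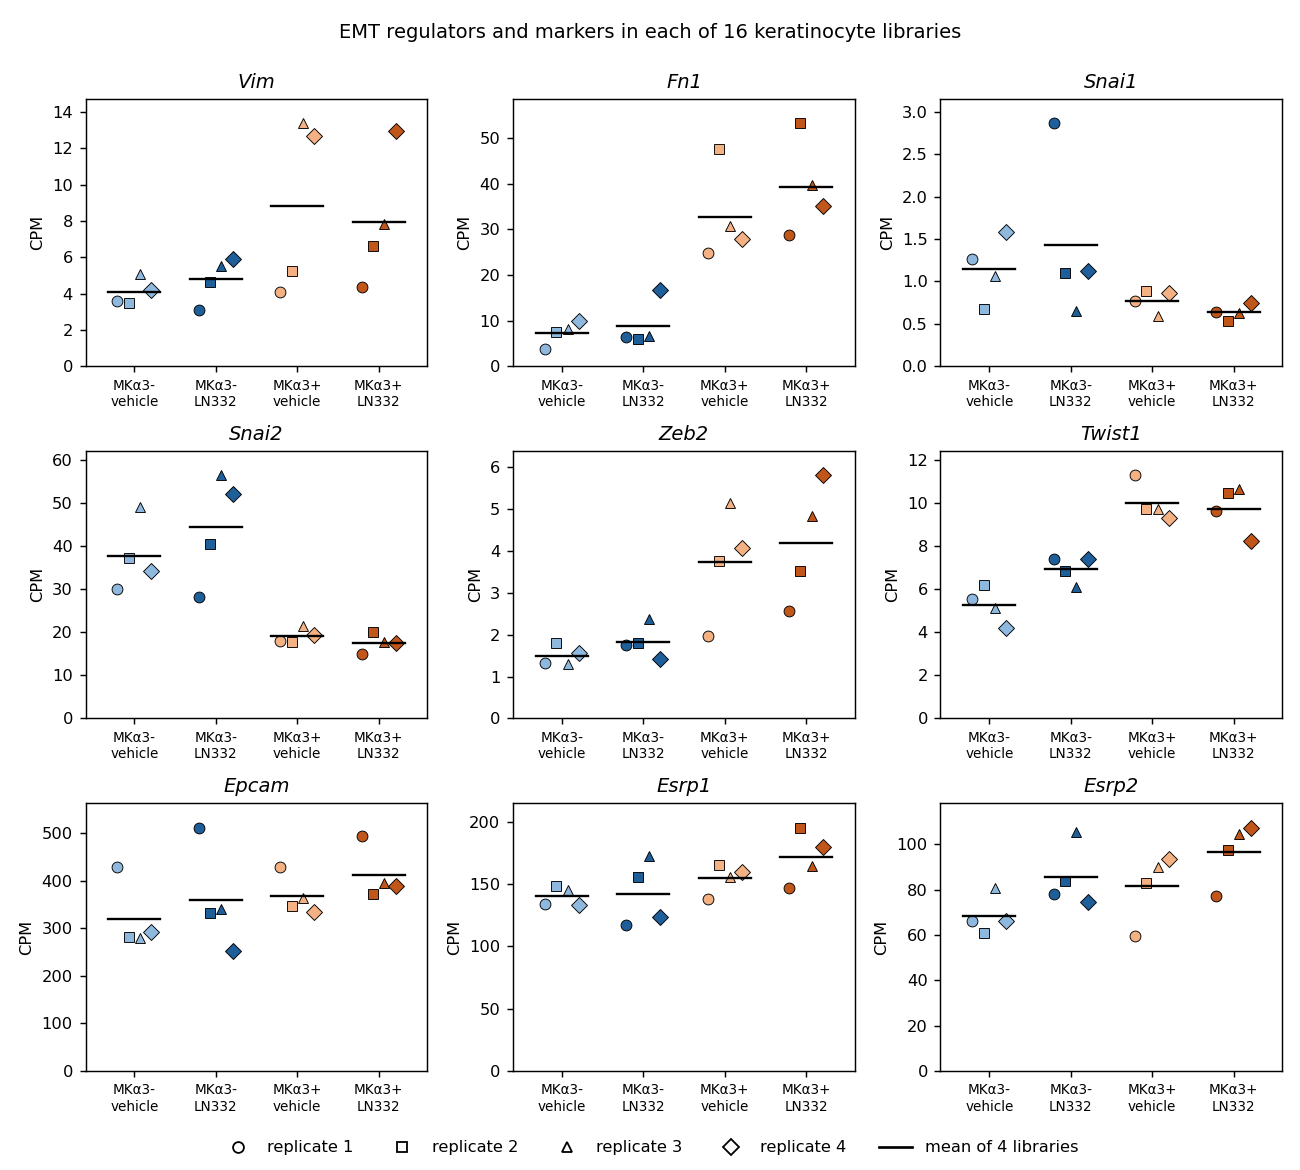
CPM of the 9 measured EMT genes in each of the 16 libraries, one panel per gene with its own linear axis from 0, the marker shape giving the replicate number and the bar the mean of 4 libraries. *Fn1*, *Zeb2* and *Twist1* lie higher and *Snai2* lower in all MKα3+ libraries than in the MKα3- libraries with the same treatment, while *Vim* is above 12 CPM in only 3 MKα3+ libraries.

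The products of the mesenchymal state come first. *Fn1* (Entrez 14268, chr1:71585473-71653280, minus strand, GRCm38) encodes fibronectin, a matrix glycoprotein that migrating keratinocytes bind through integrins. Vehicle-treated MKα3- libraries had 3.75, 7.56, 8.08 and 9.88 CPM and vehicle-treated MKα3+ libraries 24.7, 47.7, 30.8 and 27.8 CPM. With LN332 the values were 6.36, 5.93, 6.57 and 16.7 CPM in MKα3- and 28.7, 53.3, 39.7 and 35.1 CPM in MKα3+ cells. Every MKα3+ library was above every MKα3- library, and replicate 4 of the LN332-treated MKα3- cells was the highest of its group by far. The fitted difference was 4.57-fold in vehicle (log2 2.19, SE 0.32, adjusted p = 6.24e-05, limma-voom) and 4.93-fold in LN332 (log2 2.30, SE 0.32, adjusted p = 3.02e-05). Over 28 alternative settings the log2 difference stayed between 1.90 and 2.42 in vehicle and between 2.14 and 2.63 in LN332, and it passed in each. It was 2.30 in vehicle and 2.34 in LN332 without the 3 libraries high in immune markers. An antisense gene, *Apol7d*, overlaps 2.499% of the *Fn1* exons. The strand setting of the counting was not stated, so reads of the pair could not be told apart there.

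*Vim* (Entrez 22352, chr2:13574311-13582826, plus strand) encodes vimentin, the intermediate filament protein of mesenchymal cells and of leukocytes. It was at 3.58, 3.49, 5.07 and 4.21 CPM in vehicle-treated MKα3- and at 4.08, 5.25, 13.4 and 12.7 CPM in vehicle-treated MKα3+ libraries. With LN332 it was at 3.10, 4.63, 5.53 and 5.91 CPM in MKα3- and 4.38, 6.62, 7.82 and 12.96 CPM in MKα3+ libraries. The 3 libraries above 12 CPM are the 3 that were highest in immune markers, and the other 5 MKα3+ libraries, at 4.08 to 7.82 CPM, overlapped the range of the 8 MKα3- libraries, 3.10 to 5.91 CPM. *Vim* did not pass in vehicle (log2 fold change 0.94, SE 0.40, 95% interval 0.11 to 1.77, adjusted p = 0.0854, limma-voom) or in LN332 (0.68, SE 0.40, adjusted p = 0.207). In vehicle the call depended on the tool and the libraries. It passed with edgeR (1.11, adjusted p = 0.0312), DESeq2 (1.11, adjusted p = 0.0104) and limma-voom without MKα3+ vehicle replicate 1 (1.26, adjusted p = 0.0176), and without the 3 libraries high in immune markers it was 0.19 (adjusted p = 0.737). With a term for replicate number in limma-voom (replicate block), *Vim* passed in vehicle (1.08, adjusted p = 0.00263) and in LN332 (0.69, adjusted p = 0.0335). *Vim* also ran with replicate number. It was above its group's mean log2 CPM in replicates 3 and 4, and below it in replicates 1 and 2, in 4 of 4 groups. The highest MKα3- value, 5.91 CPM, was in LN332 replicate 4, which had the lowest immune marker sum of the 16 libraries (39.9 CPM). How far leukocyte RNA took part in the *Vim* level was not tested.

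**Figure D3:**
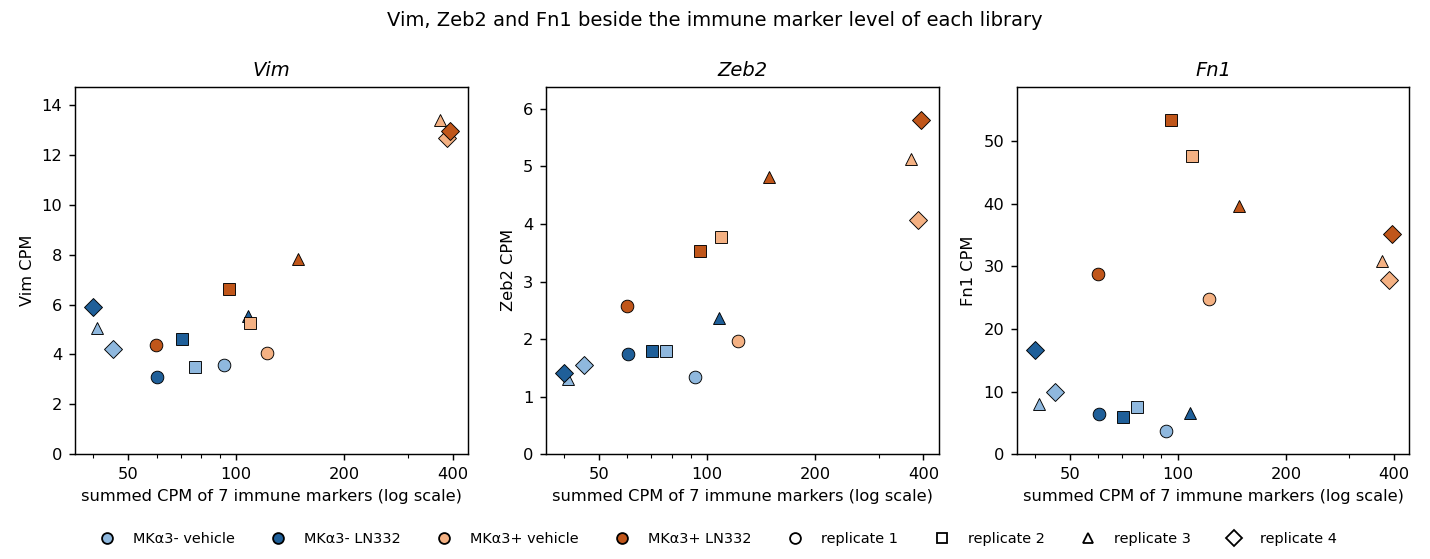
CPM of *Vim*, *Zeb2* and *Fn1* on linear axes from 0 against the summed CPM of 7 immune markers on a log axis, each point a library, coloured by group and shaped by replicate number. The 3 libraries with 369 to 393 CPM of immune markers hold the 3 highest *Vim* values, whereas the highest *Fn1* values are in MKα3+ libraries with fewer immune marker counts.

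Of 13 measured intermediate filament and linker genes, *Vim* included, 2 were higher and 2 lower in MKα3+ cells in vehicle and 1 in each direction in LN332. These were 30.8% and 15.4% of the list, against 18.5% and 20.6% of all genes. Without the 3 libraries high in immune markers, 1 was higher in vehicle and none lower (limma-voom), where 13.1% of all genes passed. *Krt8*, a keratin of simple epithelia, rose from 552 ± 42.2 to 1292 ± 112 CPM in vehicle (log2 1.23, SE 0.11, adjusted p = 1.90e-07, limma-voom). *Ina* also rose (log2 2.55, adjusted p = 0.0491), a call lost in 18 of 28 alternatives. *Des* fell by 1.55 (adjusted p = 0.0113) and *Dst* by 0.63 (adjusted p = 0.0332) in the same fit.

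Related mesenchymal genes were taken from a list with 36 genes beside *Vim* and *Fn1*, of which 33 were measured. In vehicle 8 of them were higher and 2 lower in MKα3+ cells, and in LN332 10 were higher and 2 lower, with medians of 0.29 and 0.40 (log2). Over all genes 10.9% were higher and 7.56% lower in vehicle, and 11.7% and 8.92% in LN332. *Sparc*, a secreted matrix protein, rose from 34.2 ± 7.56 to 222 ± 41.8 CPM in vehicle (log2 2.71, SE 0.23, adjusted p = 1.54e-07, limma-voom). *Thbs1*, which encodes thrombospondin-1, rose by 1.88 (SE 0.26) and its relative *Thbs2* fell by 3.61 (SE 0.58), from 11.5 ± 5.21 to 0.920 ± 0.324 CPM. The protease gene *Fap* fell by 1.46 (SE 0.39), although not past the threshold without the 3 libraries high in immune markers (fitted value -1.14, adjusted p = 0.158). Outside the naming rule and chosen after its values were seen, N-cadherin (*Cdh2*) rose from 94.7 ± 25.4 to 197 ± 13.3 CPM (log2 1.09, SE 0.18, adjusted p = 2.06e-04). Of 17 measured fibronectin receptor and matrix assembly genes, 3 were higher and 1 lower in vehicle, and 1 in each direction without the 3 libraries high in immune markers. In vehicle 23.5% of the list passed against 18.5% of all genes, and without those libraries 13.1% of all genes passed. The tensin gene *Tns3* rose by 0.74 (SE 0.10), and *Tgm2*, the transglutaminase that crosslinks matrix, fell by 1.81 (SE 0.22).

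The transcription factors moved in both directions. *Snai2* (Entrez 20583, chr16:14705852-14709395, plus strand) was at 30.1, 37.1, 48.9 and 34.2 CPM in vehicle-treated MKα3- and at 17.9, 17.8, 21.5 and 19.3 CPM in vehicle-treated MKα3+ libraries. The LN332-treated libraries had 28.2, 40.5, 56.4 and 52.0 CPM without and 14.9, 19.97, 17.7 and 17.6 CPM with α3. All 8 MKα3- values were above all 8 MKα3+ values, and the spread was wider in MKα3- cells. *Snai2* was 1.94-fold lower in MKα3+ cells in vehicle (log2 -0.96, SE 0.19, adjusted p = 0.00123, limma-voom) and 2.44-fold lower in LN332 (log2 -1.29, SE 0.20, adjusted p = 8.69e-05). It passed in all 28 alternative settings of either comparison.

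*Snai1* (Entrez 20613, chr2:167538195-167542814, plus strand), a second Snail-family member, was scarce, with 13 to 74 counts per library. It was at 1.26, 0.678, 1.06 and 1.59 CPM in MKα3- and 0.764, 0.882, 0.588 and 0.863 CPM in MKα3+ libraries in vehicle. With LN332 the MKα3- libraries had 2.87, 1.09, 0.646 and 1.12 CPM and the MKα3+ libraries 0.643, 0.528, 0.623 and 0.749 CPM. The groups overlapped under both treatments, and the value of 2.87 CPM was the highest of the 16. Neither difference passed, at -0.50 in vehicle (SE 0.40, adjusted p = 0.376, limma-voom) and -0.93 in LN332 (SE 0.42, adjusted p = 0.0996). In LN332 it passed with edgeR (-1.17, adjusted p = 0.0342), with DESeq2 (-1.18, adjusted p = 0.0244) and without MKα3- LN332 replicate 3 (-1.26, adjusted p = 0.0235). The replicate block in limma-voom also gave a pass there (-1.04, adjusted p = 0.0256). The 95% interval in vehicle ran from -1.35 to 0.34.

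*Zeb2* (Entrez 24136, chr2:44983512-45117442, minus strand) was scarce as well, with 29 to 155 counts per library. Its vehicle values were 1.33, 1.80, 1.31 and 1.55 CPM in MKα3- and 1.96, 3.77, 5.13 and 4.07 CPM in MKα3+ libraries. Under LN332 they were 1.75, 1.80, 2.37 and 1.42 CPM in MKα3- and 2.57, 3.53, 4.83 and 5.81 CPM in MKα3+ libraries. The groups did not overlap under either treatment, and replicate 1 was the lowest MKα3+ library in each. *Zeb2* was 2.34-fold higher in MKα3+ cells in vehicle (log2 1.23, SE 0.33, adjusted p = 0.0103, limma-voom) and 2.19-fold higher in LN332 (log2 1.13, SE 0.32, adjusted p = 0.0126). *Zeb2* is also expressed in macrophages. Without the 3 libraries high in immune markers the difference was 0.85 in vehicle, which did not pass (adjusted p = 0.124), and 0.94 in LN332, which did (adjusted p = 0.0341). Without the 4 replicate 4 libraries the LN332 difference was 0.84 (adjusted p = 0.120). The opposite-strand gene *Zeb2os* overlaps 3.27% of its exons.

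*Twist1* (Entrez 22160, chr12:33957671-33959831, plus strand), a basic helix-loop-helix factor, had the smallest SE of the measured transcription factors among the members in both comparisons. It was at 5.54, 6.17, 5.10 and 4.21 CPM in vehicle-treated MKα3- and at 11.3, 9.70, 9.71 and 9.32 CPM in vehicle-treated MKα3+ libraries. LN332-treated MKα3- libraries had 7.37, 6.82, 6.10 and 7.38 CPM, and their MKα3+ counterparts 9.64, 10.4, 10.6 and 8.24 CPM. The groups did not overlap in either treatment, but the gap was narrower with LN332. The difference was 1.91-fold in vehicle (log2 0.94, SE 0.14, adjusted p = 7.28e-05, limma-voom). In LN332 it was 1.41-fold (log2 0.49, SE 0.14, adjusted p = 0.0103), past the p threshold but just under the minimum change of 0.5. It reached that minimum in 8 of 28 alternatives, among them those without MKα3- LN332 replicate 1 (0.53), MKα3- LN332 replicate 4 (0.52), MKα3+ LN332 replicate 4 (0.57) and the 3 libraries high in immune markers (0.57).

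**Figure D4:**
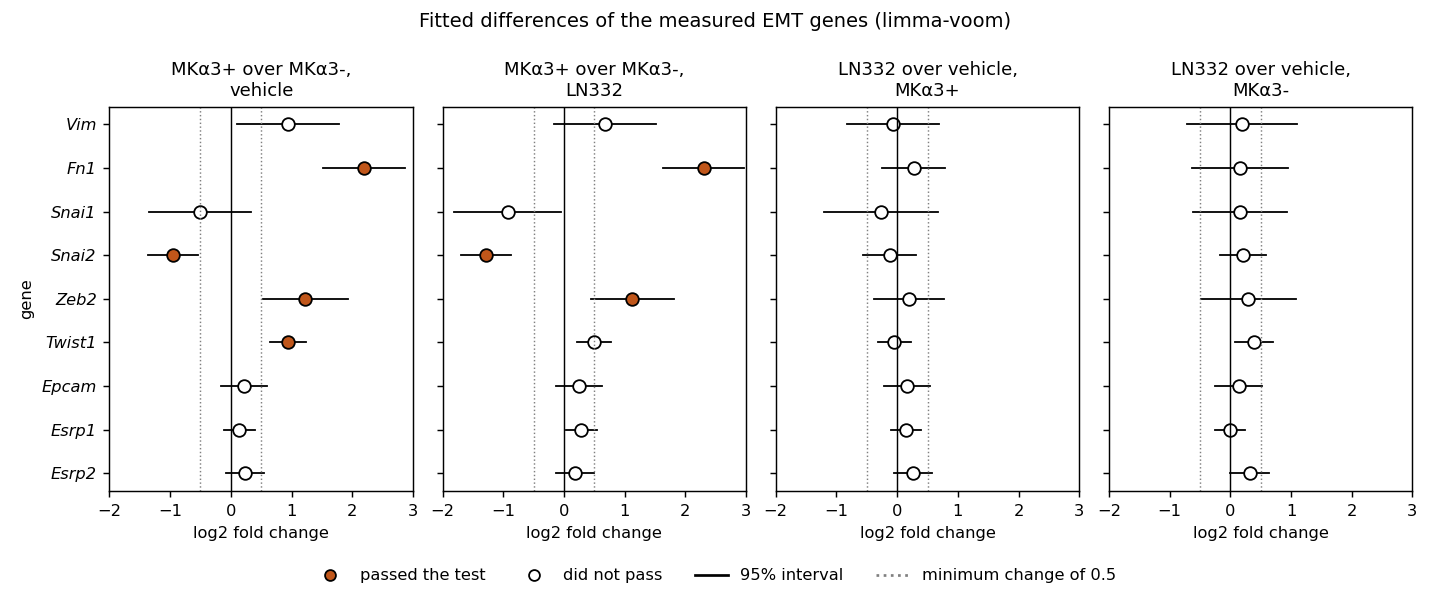
Log2 fold changes of the 9 measured EMT genes from limma-voom with 95% intervals in 4 comparisons, filled where the gene passed. *Fn1*, *Zeb2* and *Snai2* are filled in both comparisons of MKα3+ with MKα3- cells and *Twist1* in the vehicle one, and no gene is filled in the comparisons of LN332 with vehicle.

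Of 11 other factors of the same program, 8 were measured. In vehicle 2 were higher in MKα3+ cells and 2 lower, and in LN332 again 2 were higher and 2 lower, with medians of -0.13 and -0.08. Over all genes 18.5% passed in vehicle and 20.6% in LN332. The Krüppel-like factor gene *Klf8* rose from 0.466 ± 0.253 to 6.41 ± 1.01 CPM (log2 3.97, SE 0.48, adjusted p = 7.33e-06, limma-voom). *Snai3*, a further Snail gene, rose by 1.55 (SE 0.37, adjusted p = 0.00430), though not past the threshold without the 3 libraries high in immune markers (adjusted p = 0.0581) or the 4 replicate 4 libraries (adjusted p = 0.0523). *Twist2* went the other way from its paralog *Twist1* and fell from 25.2 ± 2.78 to 5.38 ± 0.751 CPM (log2 -2.23, SE 0.16, adjusted p = 1.46e-08). The forkhead gene *Foxc1* fell by 0.66 (SE 0.16). The TGF-β pathway is the best known inducer of these factors. A list of TGF-β pathway genes that also held BMP, activin and Id genes had 18 measured genes. Of these, 6 were higher and 1 lower in vehicle and 4 higher and 1 lower in LN332. These were 38.9% and 27.8% of the list, against 18.5% and 20.6% of all genes. The co-receptor gene *Tgfbr3* rose from 0.415 ± 0.372 to 3.11 ± 0.795 CPM (log2 3.14, SE 0.48) and the activin subunit gene *Inhba* from 0.276 ± 0.131 to 1.74 ± 0.300 CPM (log2 2.71, SE 0.37). *Id3*, an inhibitor of basic helix-loop-helix factors, fell by 0.65 (SE 0.13).

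None of the epithelial members passed between the lines. *Epcam* (Entrez 17075, chr17:87635979-87651127, plus strand) was at 429, 281, 279.8 and 292 CPM in MKα3- and 429, 348, 364 and 335 CPM in MKα3+ libraries in vehicle. With LN332 the values were 512, 331, 340.2 and 252 CPM in MKα3- and 494, 372, 397 and 389.5 CPM in MKα3+ libraries. The groups overlapped, and replicate 1 was the highest library in all 4 groups. The differences were 0.22 in vehicle (95% interval -0.16 to 0.60, adjusted p = 0.393, limma-voom) and 0.25 in LN332 (-0.14 to 0.63, adjusted p = 0.326), intervals that include changes of more than 0.5. Of 15 measured partners of EpCAM and proteases that cleave it, 1 was higher in vehicle and none in LN332 (limma-voom). Over all genes 18.5% and 20.6% passed. The 1 was β-catenin (*Ctnnb1*, log2 0.50, SE 0.08), which sat at the minimum change and was under it in 17 of 28 alternatives.

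*Esrp1* (Entrez 207920, chr4:11331933-11386783, minus strand) was at 134, 149, 145 and 133 CPM in MKα3- and 138, 165, 156 and 159.6 CPM in MKα3+ libraries in vehicle. Under LN332 it was at 117, 155, 172 and 123 CPM in MKα3- and 147, 195, 165 and 179.7 CPM in MKα3+ libraries. *Esrp2* (Entrez 77411, chr8:106130319-106137193, minus strand) was at 66.0, 60.7, 80.7 and 66.4 CPM in MKα3- and 59.5, 83.1, 89.9 and 93.4 CPM in MKα3+ libraries in vehicle. The groups of both splicing factors overlapped. For *Esrp2* in LN332 the MKα3- libraries had 78.2, 83.9, 106 and 74.5 CPM and the MKα3+ libraries 77.2, 97.5, 105 and 107 CPM. *Esrp1* differed by 0.14 in vehicle (95% interval -0.11 to 0.39, adjusted p = 0.407, limma-voom) and 0.29 in LN332 (0.04 to 0.54, adjusted p = 0.0738), and *Esrp2* by 0.24 (-0.08 to 0.55, adjusted p = 0.255) and 0.18 (-0.14 to 0.49, adjusted p = 0.392). Opposite-strand genes overlap 2.01% of the *Esrp1* exons (*Gm26663*) and 5.05% and 2.74% of the *Esrp2* exons (*Nfatc3* and *1810019D21Rik*). Gene-level counts do not show exon use, so the splicing of ESRP targets was not measured. The total level of their host genes was measured. In vehicle 18.5% of all genes passed, and 13.1% without the 3 libraries high in immune markers. Of 15 host genes, 2 were higher and 2 lower in vehicle (1 and 1 without those libraries). The fibroblast growth factor receptor genes were among them, with *Fgfr1* higher (0.866 ± 0.586 to 3.195 ± 0.927 CPM, log2 2.06, SE 0.49) and *Fgfr2*, whose epithelial exon is the textbook ESRP target, lower (16.2 ± 5.85 to 3.83 ± 0.391 CPM, log2 -1.99, SE 0.43). Of 12 other measured splicing and RNA-binding genes, 2 rose in vehicle, where 18.5% of all genes passed. *Ptbp3* rose by 0.60 (SE 0.12) and *Celf1* by 0.53 (adjusted p = 0.00918, limma-voom). The *Celf1* call was lost in 5 of 28 alternatives, with an adjusted p of up to 0.134.

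Epithelial genes outside the members did not move as a block. Of 32 measured surface and junction genes beside *Epcam*, 8 were higher and 1 lower in MKα3+ cells in vehicle, and 8 were higher and none lower in LN332 (limma-voom). Over all genes 10.9% were higher and 7.56% lower in vehicle, and 11.7% and 8.92% in LN332. The simple-epithelium keratin *Krt19* rose from 6.33 ± 1.76 to 358 ± 38.6 CPM (log2 5.87, SE 0.23, adjusted p = 3.12e-11) and the tight junction gene *Cldn3* from 6.05 ± 2.44 to 90.0 ± 7.53 CPM (log2 3.98, SE 0.24). *Mal2*, an apical transport protein, rose by 1.66 (SE 0.11). E-cadherin (*Cdh1*), again outside the naming rule and picked after its values were seen, was at 345 ± 20.01 and 459 ± 51.4 CPM in vehicle, a difference that did not pass (log2 0.41, SE 0.17, adjusted p = 0.0898), and rose in LN332 (log2 0.82, SE 0.17, adjusted p = 0.00166). Of 13 measured epithelial transcription factors none was higher, 3 were lower in vehicle and 4 in LN332, and without the 3 libraries high in immune markers 1 was lower in vehicle and 4 in LN332. Over all genes 7.56% and 8.92% were lower, and without those libraries 13.1% and 16.6% passed in either direction. *Elf3* was lower in both (-0.77, SE 0.22 and -0.82, SE 0.22), although in vehicle not without the 3 libraries high in immune markers (-0.61, adjusted p = 0.173) or the 4 replicate 4 libraries (-0.77, adjusted p = 0.0510). The p63 gene *Trp63*, the master factor of basal keratinocytes, was lower in LN332 (log2 -0.91, SE 0.26, adjusted p = 0.0128). Of the 13 keratinocyte markers, 4 were lower in MKα3+ cells in vehicle and 4 in LN332, and none was higher (limma-voom), where 7.56% and 8.92% of all genes were lower. Among the markers of other cell types in vehicle, 3 of 10 fibroblast markers, none of 6 endothelial markers and 1 of 2 melanocyte markers were lower, and 3 of 7 immune markers were higher. In the same comparison 10.9% of all genes were higher. Without the 3 libraries high in immune markers, 2 keratinocyte and 1 fibroblast marker were lower in vehicle, where 13.1% of all genes passed in either direction. In that fit 1 immune marker was higher, but the 3 libraries had been picked by these same markers, so this count cannot inform on them.

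**Figure D5:**
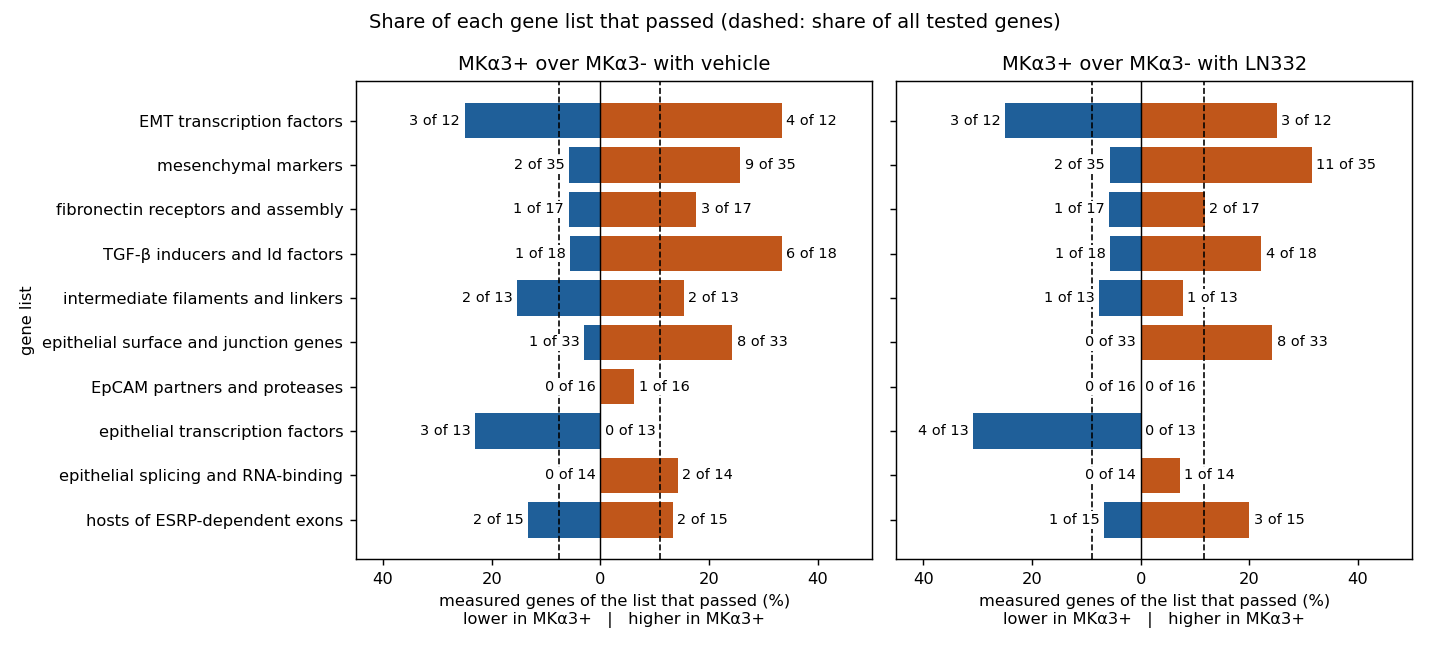
Percentage of the measured genes of 10 lists, members included, that passed as higher (right) or lower (left) in MKα3+ than in MKα3- cells, with counts beside the bars and dashed lines at the share of all tested genes. EMT transcription factors passed in both directions, mesenchymal and epithelial surface genes mostly as higher and epithelial transcription factors only as lower.

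The next question was whether LN332 itself shifted these genes. No member passed in MKα3+ cells, where 0.187% of all genes did, or in MKα3- cells, where 0.304% did (limma-voom). At an unadjusted p below 0.05 there were 0 members in MKα3+ and 2 in MKα3- cells, and edgeR and DESeq2 called 0 members in either line. The member medians were 0.15 in MKα3+ and 0.20 in MKα3- cells, against -0.01 over all genes in both. These comparisons share vehicle or LN332 libraries with those between the lines and are not independent of them.

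In MKα3- cells *Twist1* had the smallest unadjusted p of the members. Its LN332 values, 6.10 to 7.38 CPM, lay above 3 of the 4 vehicle values, 4.21 to 5.54 CPM, and overlapped the fourth, 6.17 CPM. The log2 difference was 0.40 (SE 0.15, 95% interval 0.08 to 0.71, unadjusted p = 0.0159, adjusted p = 0.246, limma-voom). *Esrp2* was the other, at 68.4 ± 8.59 CPM in vehicle and 85.6 ± 13.9 CPM in LN332 (log2 0.32, SE 0.15, unadjusted p = 0.0479, adjusted p = 0.353). Over the remaining 7 members the log2 differences in MKα3- cells lay between 0.00 for *Esrp1* and 0.29 for *Zeb2*.

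In MKα3+ cells the differences ran from -0.27 for *Snai1* (95% interval -1.21 to 0.67) to 0.27 for *Fn1* (-0.25 to 0.80). The intervals were narrow for *Twist1* (-0.31 to 0.22) and *Esrp1* (-0.10 to 0.40) and wide for *Vim* (-0.82 to 0.69) and *Zeb2* (-0.38 to 0.78), so a change of more than 0.5 lay outside the interval for the former pair and inside it for the latter. These intervals come from the fit without the replicate block, and none is given with it. With the block the differences were -0.04 for *Twist1*, 0.15 for *Esrp1*, -0.13 for *Vim* and 0.17 for *Zeb2*. Vehicle-treated libraries had 81.4 ± 15.3 CPM of *Esrp2* and LN332-treated libraries 96.7 ± 13.7 CPM (log2 0.26, SE 0.15, adjusted p = 0.640), and *Snai2* at 19.1 ± 1.71 and 17.6 ± 2.06 CPM (log2 -0.13, SE 0.21, adjusted p = 0.937).

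The responses of the lines to LN332 were compared directly through the interaction term, which passed for 0% of all genes and no member (limma-voom), with 164 genes and 1 member at an unadjusted p below 0.05 and 0 genes by edgeR and by DESeq2. The member was *Twist1*. Its LN332 difference was 0.44 lower in MKα3+ than in MKα3- cells on the log2 scale (fitted value -0.44, SE 0.19, unadjusted p = 0.0361, adjusted p = 0.9999). For *Snai2*, 0.21 in MKα3- against -0.13 in MKα3+ cells, the interaction was -0.33 (95% interval -0.91 to 0.25). In the surrounding lists, 3 genes rose with LN332 in MKα3- cells, the keratin gene *Krt8* (log2 0.55, SE 0.10, adjusted p = 0.0326), the EpCAM partner *Fhl2* (0.54, SE 0.11, adjusted p = 0.0403) and the keratinocyte marker *Sfn* (0.77, SE 0.15, adjusted p = 0.0352), and none in MKα3+ cells. Each of these 3 calls was lost without MKα3- LN332 replicate 2 or 4, MKα3- vehicle replicate 2, 3 or 4, MKα3+ LN332 replicate 3 or 4, or MKα3+ vehicle replicate 4, and the adjusted p reached 0.366 for *Krt8*, 0.375 for *Fhl2* and 0.319 for *Sfn* over the alternatives.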

How the data were processed

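RNA from 16 keratinocyte samples was poly(A)-selected and sequenced. The authors made the counts by aligning to mm10 with Rsubread and running featureCounts with its inbuilt Entrez gene models, and the deposited values are raw counts. The processing notes also name bcl2fastq 2.20, edgeR and limma, and a strand setting is not given in the sources used here. All 16 columns matched a sample label, and of 14474 genes 284 had no symbol. The study's filter (more than 0.5 CPM in at least 3 libraries) removed 0 genes, since each had it in at least 6. No 2 replicates agreed within sampling noise (smallest chi-square per degree of freedom 5.45).

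TMM factors came from edgeR 4.0.16. All 16 libraries entered 1 limma 3.58.1 voom fit with a coefficient per group (R 4.3.3). Benjamini-Hochberg adjusted p-values cover all genes, and a pass also needed an absolute log2 fold change over 0.5, except for the interaction. Alternatives were DESeq2 1.42.0, the quasi-likelihood test of edgeR, other scalings and filters, sample weights, a replicate block, fewer groups or libraries. Leaving out all replicate 1 or replicate 4 libraries, or the 3 MKα3+ libraries highest in immune markers, was added after the data were seen. The members and lists were chosen with earlier results of these data known, and gene lists are described by counts and medians without a set test. Named list genes are, per list and comparison, at most the 3 that passed with the largest change in each direction. Exon lengths and overlaps came from GENCODE vM21 on GRCm38, and promoter windows from RefSeq.

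Replicate numbers come from the titles. Deviations from group means correlated between same-numbered libraries by more than 0.1 in all 4 pairs only for LN332 against vehicle in MKα3+ cells (r = 0.202 to 0.620), where the pairing was accepted. With the replicate block, 218 genes rather than 27 passed there and still 0 members.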

Additional observations from a re-analysis of the deposited data

Results flagged for a closer look

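Within each group of 4 libraries, the highest and lowest values of the 9 measured members were compared with the rest by Dixon's test. Of 36 groups tested, 2 held a library that stood apart, where chance at 1 in 20 would give 1.8.

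*Fn1* was at 16.7 CPM in MKα3- LN332 replicate 4, against 5.93 to 6.57 CPM in the other 3 libraries of that group, and stayed below the lowest MKα3+ library, 24.7 CPM. *Epcam* was at 429 CPM in MKα3- vehicle replicate 1, against 279.8 to 292 CPM in the others of the group.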

How the results depend on the processing

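Of 1251 recomputed member fold changes, 1179 kept their direction and side of the threshold, 19 passed newly, 2 no longer passed (*Zeb2*, given in the report) and 51 changed sign, all of the last from differences that had not passed. The number of members passing between the lines was 4 to 5 in vehicle and 3 to 4 in LN332 with single libraries left out, 2 in vehicle at a minimum log2 change of 1, and 6 in LN332 with the replicate block (4 higher, 2 lower, where 23.4% of all genes passed), which added *Vim* (0.69, adjusted p = 0.0335), *Snai1* (-1.04, adjusted p = 0.0256) and *Twist1* (0.51, adjusted p = 0.00289). In vehicle the block, under which 21.1% of all genes passed, added *Vim* (1.08, adjusted p = 0.00263). Same-numbered libraries correlated by 0.091 to 0.267 in vehicle, by -0.047 to 0.558 in LN332 and, for LN332 in MKα3- cells, by -0.012 to 0.507. Numbers were therefore not taken as pairs there. Each library entered more than 1 comparison. In 25 of 32 such checks its highest correlation in the other group was with its own number. The block changed no other member call. *Vim* in vehicle also passed with sample weights (1.24, adjusted p = 0.0189) and without the replicate 1 libraries (1.20, adjusted p = 0.0234).

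Sign changes of the LN332 difference were as follows. *Esrp1* in MKα3- cells was 0.0186 with edgeR, 0.0165 with DESeq2, 0.00039 with the block, 0.0891 with sample weights, 0.0597 without replicate 1, 0.0369 without replicate 4 and -0.0977 to 0.0788 with single libraries left out. *Fn1* in MKα3- cells was -0.19 with sample weights, -0.04 without replicate 1 and -0.14 to 0.34 with single libraries left out. *Snai1* there was -0.19 without replicate 1 and -0.26 to 0.48, and *Epcam* -0.0583 to 0.295. In MKα3+ cells *Vim* was 0.41 without the 3 libraries high in immune markers and -0.39 to 0.19 with single libraries left out, *Twist1* 0.0141 with sample weights, 0.0164 without replicate 1 and -0.0930 to 0.0295, and *Zeb2* -0.0906 to 0.41. The interaction of *Fn1* was -0.00639 with edgeR, -0.0144 with DESeq2 and -0.0648 to 0.41 with single libraries left out. That of *Epcam* was -0.00168 with edgeR, -0.0278 with sample weights, -0.12 without replicate 4, -0.0224 without the 3 libraries and -0.14 to 0.22. Without the 3 libraries it was 0.21 for *Vim*, 0.0977 for *Zeb2* and 0.0767 for *Esrp2*, and with single libraries left out -0.39 to 0.11 for *Zeb2* and -0.20 to 0.0476 for *Esrp2*. The cause was not tested.

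Over all genes, LN332 in MKα3+ cells gave 27 calls, but 4 with edgeR, 121 with DESeq2, 3 with library size alone, 218 with the block, 454 with sample weights, 106 with only the 2 groups, 5 at a minimum of 1, 87 and 0 without replicates 1 and 4, and 0 to 47 with single libraries left out. In MKα3- cells 44 (35 higher, 9 lower) became 165 with DESeq2, 74 with library size alone (24 higher, 50 lower), 259 with the block, 123 with sample weights, 1 with only the 2 groups, 6 at a minimum of 1, 163 and 2 without replicates 1 and 4, and 1 to 150 with single libraries left out. Without the 3 libraries high in immune markers the counts were 0 and 1. Between the lines, 2676 and 2987 became 4115 and 4654 with no minimum and 1362 and 1345 at a minimum of 1. Depth limits *Snai1* and *Zeb2* most.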

Other observations

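The genes whose log2 CPM ran most like that of a member over the 16 libraries are given as a description. The libraries come from MKα3- cells and the MKα3+ line made from them, and they fall into groups. *Vim* was most alike *Ucp2* (Pearson r = 0.957), *Lyz1* (0.942), the second mouse lysozyme gene, and *Ctsz* (0.929), a lysosomal cathepsin. All 3 were highest in the 3 libraries high in immune markers, *Lyz1* at 11.3 to 12.8 CPM there and 1.13 to 5.25 CPM in the other 13. *Fn1* was most alike *Tspan13* (0.963), *Sgms2* (0.959) and *Mllt3* (0.959), and 240 genes had r above 0.9 with it. *Snai2* was most alike *Pcbp3* (0.969), *Cbr2* (0.966) and the polarity gene *Pard6g* (0.965). *Zeb2* was most alike talin (*Tln1*, 0.958), *Thbs1* (0.955) and *Phlpp1* (0.948), and *Twist1* was most alike *Ryk* (0.948), *Mtap* (0.944) and *Zfp980* (0.930). Of the epithelial members, the nearest genes were *Gm14137* (0.927) for *Epcam* and *Myadm* (0.915) for *Esrp2*. *Snai1* had no gene above 0.9.

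The relation between members looked different across and within groups. *Fn1* and *Snai2* had r = -0.76 over the 16 libraries and 0.46 after each group's mean was subtracted. *Esrp1* and *Esrp2* had 0.70 and 0.67, *Vim* and *Zeb2* 0.81 and 0.71, and *Epcam* and *Snai2* -0.64 and -0.78. The replicate number runs with several of these values. Replicate 1 was above its group's mean log2 CPM for *Epcam* in 4 of 4 groups, and below it in 4 of 4 groups for *Vim*, *Fn1*, *Snai2*, *Zeb2*, *Esrp1* and *Esrp2*. Over all genes, deviations from group means correlated between same-numbered libraries by 0.18 to 0.47 on average, depending on the comparison. The labels do not say whether a number marks a shared batch, and what same-numbered libraries had in common was not tested.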
